A study of Mus musculus with 12 samples.

Results

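The livers of mice fed Dongjin rice (DJ) were compared with the livers of mice fed the control diet (Ctrl), 3 mice against 3, on 6 of the 12 one-colour gene expression arrays of the study. The arrays were chosen by the titles in the sample labels, and the genes are described first where their probe was well above background on all 6 arrays. The study asked how rice that makes resveratrol, resveratrol itself and the parent rice act on the liver of ageing mice, and the DJ group carries its question about the grain alone. All animals were female C57BL/6N mice that were 6 weeks old when bought and had 6 months on their diet after an acclimation. Ctrl mice ate a formula diet with corn starch and sucrose, and DJ mice ate the same formula with the starch and sucrose replaced by Dongjin, a japonica rice variety. The other groups, whose levels are given beside a result where they help to read it, were RS (the control diet with resveratrol) and DJ526 (a resveratrol-producing rice made by putting a peanut stilbene synthase gene into Dongjin). Rice also differs from starch and sucrose in its protein, fibre and other contents, and the design does not separate them. The mice were kept under lights that came on in the evening, and the hour of tissue collection is not given in the sources used here. Each array held RNA of 1 mouse. The study states that animals shared cages and that cages were assigned to the groups, so that cage and diet cannot be told apart. Which cage each mouse of the arrays came from is not stated.

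The liver takes up dietary sugars and turns them into glycogen and fat, and it secretes most plasma proteins. Many of its genes follow the feeding rhythm through the circadian clock, in which the period proteins (Per1, Per2, Per3) repress the activators that drive their own genes. Heat shock proteins are chaperones that hold and refold other proteins, and their genes are switched on together by heat shock factor 1, which binds repeats of the letters GAA and its reverse complement TTC.

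Levels are given as log2 of the ratio between the processed signal and its 75th percentile on the same array, so that 0 is the 75th percentile and 1 unit is a factor of 2. Differences are DJ minus Ctrl on this scale. The 6 arrays were alike in quality. Between 73.0% and 79.3% of their spots were well above background, and 0 were saturated. The Pearson correlation between arrays was 0.989 to 0.995. It was taken over the genes well above background on all 6 arrays, each read by its brightest probe, so that dim probes are left out. Albumin and the other hepatocyte markers (9 genes) were well above background on every one of the 6 arrays, whereas the defining markers Adipoq, Pnlip, Ckm and Muc2 of fat, pancreas, muscle and gut were not. Other members of those lists were, 5 of 8 for fat and 4 of 10 for pancreas. For muscle 3 of 8 were so and for gut 3 of 6. In each list 0 to 1 member was without overlap between the diets. A count over all 6 arrays cannot show tissue present in 1 liver alone. The fat markers had a median deviation from the Ctrl mean of 1.26 in Ctrl 1. It was -1.05 to 0.11 in the other Ctrl and DJ mice. Ctrl 1, 2 and 3 and DJ 1 lay on 1 slide and DJ 2 and 3 on another, so that diet and slide cannot be told apart for DJ 2 and 3, and DJ 1 gives the value within a slide. DJ 1 also stood apart from the other mice. In it 150 genes were more than 1 log2 unit above each of the other 5 mice, against 6 to 81 genes in the others, and B cell genes were among them. The stomach genes Gkn2 and Tff1 were also highest in DJ 1, and every within-slide value below rests on that mouse.

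With limma and Benjamini-Hochberg adjustment over 39429 probes, 0 probes were called between DJ and Ctrl at an adjusted p under 0.05 (0.0% of probes), and the smallest adjusted p was 0.657. At an unadjusted p under 0.05 there were 2044 probes, 1051 higher and 993 lower in DJ. The t-test named in the methods gave 1817 probes at that unadjusted threshold and 0 after adjustment. All differences below are therefore described as measured and none had passed the test. Of the 15700 genes well above background on all 6 arrays, 875 were higher in all 3 DJ mice than in all 3 Ctrl mice (5.57%) and 809 were lower (5.15%). In the deposited table, which is scaled by another factor per array, this split was 689 higher and 1075 lower, and that of the probes at an unadjusted p under 0.05 was 821 and 1419, while normexp gave 1794 and 807 such probes. A gene without overlap has a two-sided exact permutation p of 0.1, the smallest that 3 mice against 3 can give. The p-values measure the spread between these mice and do not separate diet from cage. The median SD of a gene was 0.146 over the Ctrl mice and 0.171 over the DJ mice. All lists of genes below are read against these shares.

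The heat shock protein genes lay lower in the livers of DJ mice. Of the 14 genes in the list, 13 were measured, all of them well above background on the 6 arrays, and 10 of the 13 were lower in all DJ mice than in all Ctrl mice (76.9%, beside 5.15% of all genes). The difference was below 0 in 12 of 13, with a median of -0.33, beside 0.00 over all genes. At an unadjusted p under 0.05, 8 of the 13 were lower and 0 higher, where 2.86% and 3.39% of all genes were. None had passed the test across all probes. The list, like the others here, was chosen with earlier results of these data known, and its genes may vary together. In a tissue of many cell types, fewer cells of a type and less RNA per cell cannot be told apart.

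Hspa1a, an inducible Hsp70 chaperone, had the largest difference of the list. Its log2 level was -2.29, -2.25 and -2.05 in the Ctrl mice and -2.94, -3.50 and -3.90 in the DJ mice. It was lower in DJ by 2.38-fold, a log2 difference of -1.25 (SE 0.25, limma adjusted p = 0.657), which was -0.76 under normexp and -0.74 on the slide of the Ctrl mice. All 3 DJ mice lay below the other 9 mice of the study, whose lowest was RS 3 at -2.87, though not with the array median or quantile normalization as the scaling. Hspa1b, its near-identical neighbour, had no probe of its own here, and signal of the Hspa1a probe may come from both.

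Hsph1, the large Hsp110 chaperone that helps Hsp70 to release its clients, was at 2.82, 2.67 and 2.66 in Ctrl and at 2.19, 2.40 and 1.79 in DJ. The difference was -0.59 (SE 0.16, limma adjusted p = 0.803). The groups did not overlap. The small chaperone Hspb1 was at 4.34, 4.19 and 4.53 in Ctrl and at 4.03, 3.56 and 3.89 in DJ, a difference of -0.53 (SE 0.24). Hspa4l, an Hsp110 relative, was at 0.87, 1.33 and 1.17 against 0.44, 0.70 and 0.65, a difference of -0.52 (SE 0.16). In each of these genes the highest DJ mouse was below the lowest Ctrl mouse. Dnajb1, the Hsp40 partner of Hsp70, was at 4.00, 4.12 and 4.07 in Ctrl and at 3.81, 3.56 and 3.48 in DJ. Hsp90aa1, the inducible Hsp90, was at 4.19, 4.02 and 3.88 against 3.61, 3.70 and 3.50. Their differences were -0.44 (SE 0.12) and -0.43 (SE 0.18). The mitochondrial pair Hspe1 and Hspd1, which form the Hsp10 and Hsp60 chamber, differed by -0.32 (SE 0.10) and -0.18 (SE 0.09), and Dnaja1 by -0.31 (SE 0.12) and Hsp90ab1 by -0.10 (SE 0.07), all 4 without overlap. Dnaja1 had a further probe at -0.15, whose groups overlapped. Bag3, a co-chaperone of Hsp70, differed by -0.33 (SE 0.17) and Hspa8, the constitutive Hsp70, by -0.06 (SE 0.09), and in both the groups overlapped. The other probes of Hspa8 were at -0.19, with overlap, and -0.22, without. Cryab, a small chaperone best known from lens and muscle, was the exception at 0.17 (SE 0.10), higher in DJ without overlap.

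**Figure D1:**
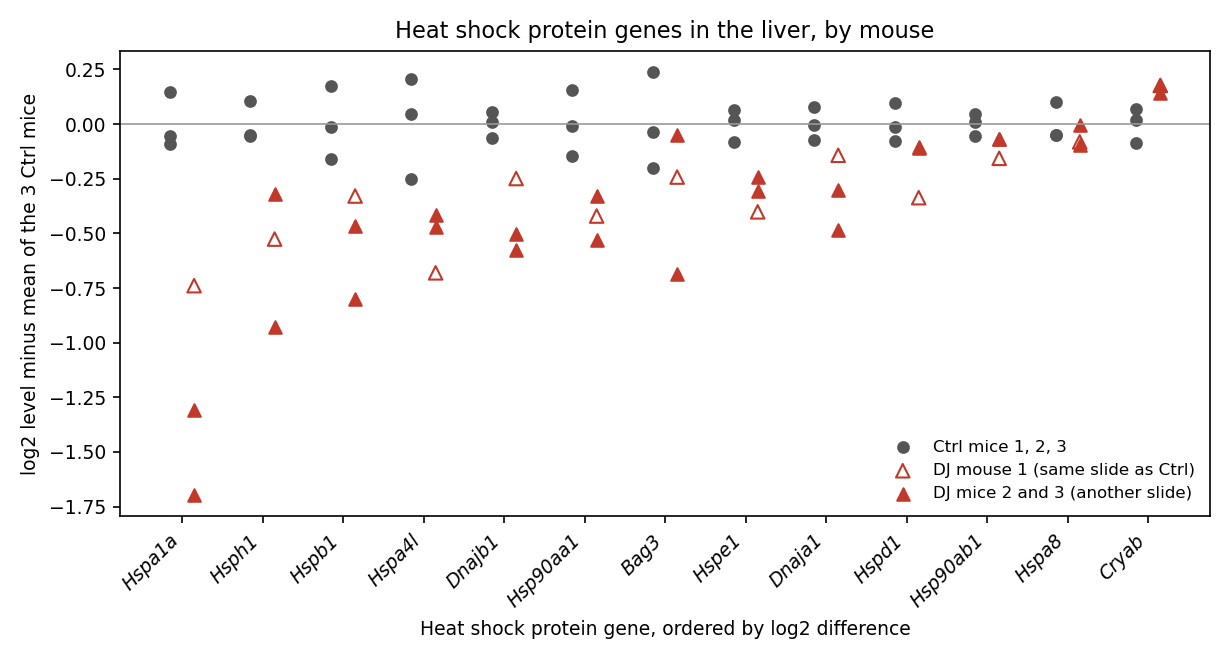
Log2 level of each of 13 heat shock protein genes in each mouse minus the mean of the 3 Ctrl mice (vertical axis, log2 units), genes ordered by their difference; circles are Ctrl mice, the open triangle is DJ 1 on the slide of the Ctrl mice, and filled triangles are DJ 2 and 3. DJ mice lay below all Ctrl mice in 10 genes, overlapped with them in Bag3 and Hspa8, and lay above them in Cryab.

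The lower heat shock values were also present within a slide and without any 1 mouse. Within the slide that holds both diets, DJ 1 was below all 3 Ctrl mice in 12 of the 13 genes, beside 28.4% of all genes, and the median difference was -0.33. Leaving out each mouse in turn gave 10 to 12 genes lower without overlap, where 8.46% to 13% of all genes were. Under 4 other scalings, the count was 8 with the array median, 9 with quantile normalization, 9 with normexp and 10 in the deposited table. Median deviations of the 13 genes from the Ctrl mean were -0.33, -0.31 and -0.47 in DJ 1, 2 and 3. They were also as low as -0.32 in RS 3 and -0.25 in DJ526 1, and between -0.12 and 0.00 in the other RS and DJ526 mice. Between DJ526 and RS, which share no array with DJ and Ctrl, the median difference was 0.05 and 0 of the 13 genes were without overlap in either direction. These arrays too are tied to slides, RS 1 and 2 to that of DJ 2 and 3 and the DJ526 mice to that of RS 3, so that slide and diet cannot be fully told apart there either.

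Promoters of 9 of the 13 genes could be matched to RefSeq (GRCm38.p6, 250 bases before to 50 bases after the start of the gene), and 6 of them held GAANNTTC or TTCNNGAA, the paired forms of the heat shock factor repeat. Each of these motifs reads the same on both strands, and matches may overlap each other. Among all 27025 promoters of that length, 15.1% held a match. Hsph1 and Hspe1 had 3 matches, Hspb1 had 2, and Hspa1a, Dnaja1 and Bag3 had 1. Dnajb1, Hspd1 and Hspa4l had none in this window. The Hspd1 window (chr1:55088194-55088493, minus strand) adjoins that of Hspe1, so that the matches of Hspe1 lie outside it but close by. A match describes the letters and does not show binding. The promoters of 4 of the genes that were lower in DJ are printed because they carry this motif, with the matches in capitals.
Hspa1a promoter, chr17:34972107-34972406, minus strand: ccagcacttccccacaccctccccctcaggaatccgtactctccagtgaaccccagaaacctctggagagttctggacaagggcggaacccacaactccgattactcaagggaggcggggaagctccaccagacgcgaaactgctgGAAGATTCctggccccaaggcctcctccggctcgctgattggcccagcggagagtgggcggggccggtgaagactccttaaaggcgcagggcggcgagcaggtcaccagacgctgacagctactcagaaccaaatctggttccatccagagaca
Hsph1 promoter, chr5:149636287-149636586, minus strand: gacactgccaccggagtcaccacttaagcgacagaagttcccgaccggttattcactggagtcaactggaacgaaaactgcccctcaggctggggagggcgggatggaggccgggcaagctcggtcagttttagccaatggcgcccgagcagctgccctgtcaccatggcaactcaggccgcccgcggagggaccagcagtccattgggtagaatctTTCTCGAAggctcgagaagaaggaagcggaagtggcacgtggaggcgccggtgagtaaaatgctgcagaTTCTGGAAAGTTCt
Hspb1 promoter, chr5:135887669-135887968, plus strand: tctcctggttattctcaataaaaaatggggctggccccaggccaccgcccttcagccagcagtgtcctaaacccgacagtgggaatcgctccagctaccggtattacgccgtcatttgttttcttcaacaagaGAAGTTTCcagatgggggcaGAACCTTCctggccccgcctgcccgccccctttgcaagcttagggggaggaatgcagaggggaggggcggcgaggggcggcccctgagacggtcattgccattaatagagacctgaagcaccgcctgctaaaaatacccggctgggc
Hspe1 promoter, chr1:55087898-55088197, plus strand: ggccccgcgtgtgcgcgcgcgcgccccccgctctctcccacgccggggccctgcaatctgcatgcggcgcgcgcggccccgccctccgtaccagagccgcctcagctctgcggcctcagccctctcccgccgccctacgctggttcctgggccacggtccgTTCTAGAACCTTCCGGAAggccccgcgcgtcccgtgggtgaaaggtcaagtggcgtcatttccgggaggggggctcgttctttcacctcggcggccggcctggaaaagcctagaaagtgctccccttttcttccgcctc
The matches of Hspe1 overlap in 1 run of letters, and so do 2 of the 3 in Hsph1.

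Per2, a repressor of the circadian clock, was the clock gene that stood apart. Its log2 level was -0.56, -0.64 and -0.41 in the Ctrl mice and -1.41, -1.60 and -1.67 in the DJ mice, 2.04-fold lower in DJ with a difference of -1.03 (SE 0.17, limma adjusted p = 0.657). The RS mice were at -0.69, -0.53 and -0.37 and the DJ526 mice at -1.19, -0.49 and -0.63. All 3 DJ mice lay below the other 9 mice under each of the 5 scalings, and DJ 1 alone lay 0.88 below the Ctrl mean on its own slide. Of all genes, 0.452% were lower and 0.433% higher in the 3 DJ mice than in the 9 others. The rest of the clock list gave no such picture. Of its 18 genes well above background, Per2 was the only one without overlap, 13 were below 0, and the median difference was -0.17. Usp2, a rhythmic deubiquitinase, was at 2.40, 1.78 and 2.62 against 1.92, 0.89 and 1.48, and these overlap. Nr1d1, a repressor of the clock activators, ranged from -3.96 to -1.38 in Ctrl and from -3.13 to -0.51 in DJ. The hour of collection of each mouse is not known here, and its part in the Per2 values was not tested.

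A pair of genes for making NAD, the cofactor of the sirtuins, lay lower as well. Nampt encodes the enzyme that makes nicotinamide mononucleotide from nicotinamide, the rate-limiting step of NAD salvage. It was at 2.11, 1.83 and 2.10 in Ctrl and at 1.59, 1.06 and 1.26 in DJ, a difference of -0.71 (SE 0.15, limma adjusted p = 0.657), which is 1.63-fold lower. Nmrk1, the nicotinamide riboside kinase, which is in no list and was chosen after its values were seen, was at 0.58, 0.05 and 0.74 in Ctrl and at -0.26, -0.66 and -0.30 in DJ, a difference of -0.87 (SE 0.20). In both genes the 3 DJ mice lay below the 9 others, for Nampt in all scalings except normexp and for Nmrk1 in all 5. The lowest of the other mice was DJ526 1 in both. On the slide of the Ctrl mice, DJ 1 was 0.42 lower in Nampt and 0.72 lower in Nmrk1 than the Ctrl mean. The list of sirtuins, NAD and AMPK had 24 genes well above background, of which 3 were lower and 1 higher without overlap, with a median of -0.01. These shares were 12.5% and 4.17%, beside 5.15% and 5.57% of all genes. The genes besides Nampt were the NAD synthetase Nadsyn1 (-0.21), the AMPK subunit Prkab1 (-0.16) and, higher in DJ, the nuclear sirtuin Sirt7 (0.20). Sirt1 was at 0.17, 0.20 and 0.21 in Ctrl and at 0.28, -0.11 and -0.12 in DJ, and these overlap.

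Hsd3b7, an enzyme of bile acid synthesis that acts on the sterol ring, was the only gene of its list of 34 without overlap. Its level was 5.72, 6.15 and 5.41 in Ctrl and 6.25, 6.77 and 6.76 in DJ, and it was 1.78-fold higher in DJ with a difference of 0.83 (SE 0.20, limma adjusted p = 0.701). All 3 DJ mice lay above the 9 others, except with the array median or quantile normalization. The lowest of them, DJ 1 at 6.25, was close to Ctrl 2 at 6.15 and DJ526 3 at 6.19. Cyp7a1, the rate-limiting enzyme of that pathway, was at 1.20, 1.28 and 2.08 in Ctrl and at 1.42, 0.09 and -0.54 in DJ. That is a difference of -1.19 (SE 0.41, limma adjusted p = 0.868) with DJ 1 inside the Ctrl range, and -0.76 without DJ 3.

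**Figure D2:**
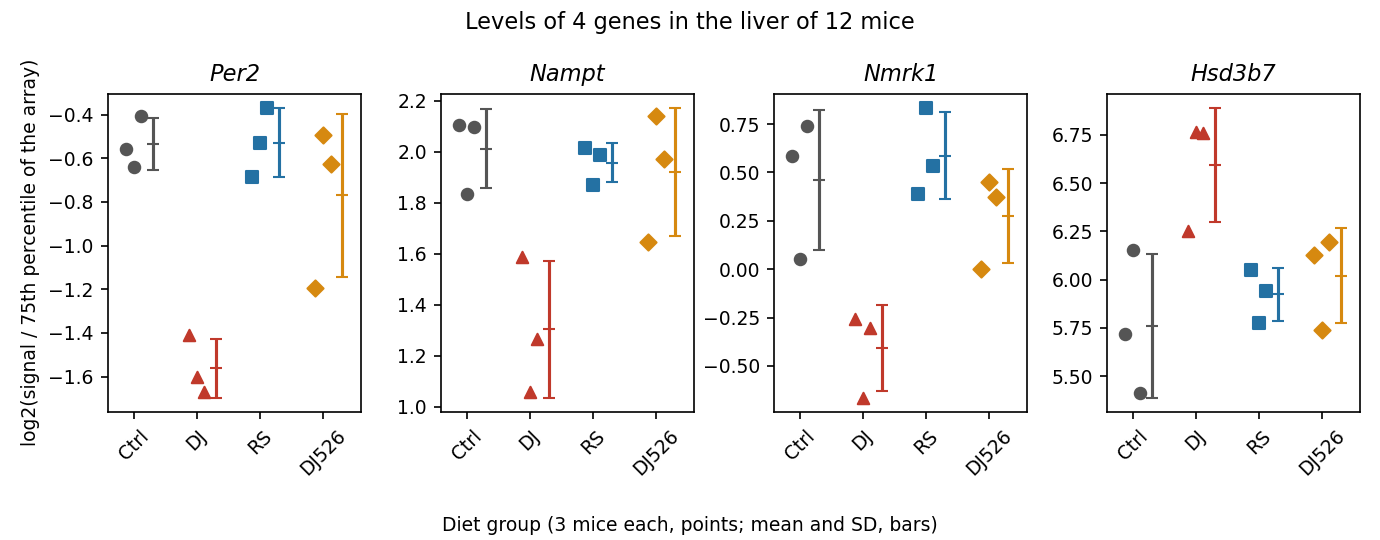
Log2 level (vertical axes, a scale for each gene) of Per2, Nampt, Nmrk1 and Hsd3b7 in the 3 mice of each of the 4 diet groups, with the mean and SD as bars. The 3 DJ mice lay below the other 9 mice in Per2, Nampt (not under normexp) and Nmrk1 and above them in Hsd3b7 (not under the array median or quantile normalization).

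Secreted proteins of the acute-phase response leaned to the higher side in DJ. Of 27 genes of the list, 22 were above 0, 5 were higher without overlap (18.5%, beside 5.57% of all genes), 0 were lower without overlap, and the median was 0.17. Lbp, which binds bacterial lipopolysaccharide, was at 2.64, 2.14 and 2.03 in Ctrl and at 2.78, 2.67 and 3.23 in DJ, a difference of 0.62 (SE 0.21, limma adjusted p = 0.86). Saa4, a serum amyloid made at all times, differed by 0.60 (SE 0.23) and Crp by 0.31 (SE 0.10). The haemoglobin scavenger Hp and the fibrinogen chain Fgg, which are among the most abundant liver messages, differed by only 0.22 (SE 0.08) and 0.21 (SE 0.07). Lbp, Hp and Fgg were above the 9 other mice, Lbp under each scaling but that of the deposited table, Fgg also in the deposited table, and Hp under no other scaling. These groups lay close together: for Hp the highest Ctrl mouse was at 8.61 and the lowest DJ mouse at 8.62. The count was 1 under normexp (3.7%), below the share of all genes there (7.64%). It was 4 under each of the other scalings (14.8%, beside 4.39% to 5.97% of all genes). Leaving out a mouse gave 5 to 9 genes higher (18.5% to 33.3%), where 8.03% to 15% of all genes were. There were 2 lower without Ctrl 1 and 1 lower without DJ 3. Within the slide of both diets, DJ 1 was above all Ctrl mice in 11 of the 27 and below them in 5, beside 28.2% and 28.4% of all genes. The median deviation from the Ctrl mean was 0.10, 0.05 and 0.26 in DJ 1, 2 and 3, and 0.07, 0.04 and -0.08 in the Ctrl mice. Hamp, the iron hormone hepcidin, was 0.80 higher (SE 0.30) with overlap, or 0.52 without Ctrl 3, and Lcn2 was at 4.01 in DJ 3 but at 1.66 to 2.15 in the 5 other mice.

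Under the 75th percentile the hepatocyte markers lay higher in DJ beside these genes, 8 of 9 above 0 with a median of 0.13. The secreted proteins Apoa2, Serpina1a, Ahsg and Trf were higher without overlap (44.4%, beside 5.57% of all genes), by 0.17, 0.20, 0.16 and 0.25. The summed level of the 9 markers, in units of the array's 75th percentile, was 3368 to 3501 in Ctrl and 3688 to 3995 in DJ. Of 12 Kupffer cell or macrophage markers 11 were below 0, with a median of -0.24 and 0 without overlap, and their summed level was 110.0 to 192.6 in Ctrl and 91.8 to 134.1 in DJ. Erythroid genes (8 of 8 below 0, median -0.27) and neutrophil genes (7 of 8 below 0, median -0.36) had medians on the same side, and T or NK cell genes on the other (11 of 11 above 0, median 0.48), all with 0 genes without overlap. Both the DJ mice and the Ctrl mice differed among themselves in these genes. The median deviation from the Ctrl mean was -0.88, -0.28 and 0.27 for erythroid genes in DJ 1, 2 and 3. In Ctrl 1, 2 and 3 it was -0.26, 0.01 and 0.26. For neutrophil genes it was -1.01, -0.67 and 0.06 in DJ and -0.47, -0.82 and 1.20 in Ctrl. For T or NK cell genes it was 0.73, 0.15 and 0.12 in DJ and -0.004, -0.35 and 0.47 in Ctrl. For Kupffer cell or macrophage markers it was -0.52, -0.37 and 0.02 in DJ and -0.11, -0.31 and 0.45 in Ctrl. Ctrl 3 was thus the highest Ctrl mouse in each of these lists. The part of cell composition in the values of this report was not tested.

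Starch and sucrose were what the rice replaced, and carbohydrate handling had few genes without overlap. Of 42 genes, 3 were lower and 1 higher (7.14% and 2.38%, beside 5.15% and 5.57% of all genes). The difference was below 0 in 30, and the median was -0.07. Gpi1, which interconverts glucose and fructose phosphates, was at 5.68, 6.13 and 6.29 in Ctrl and at 5.22, 5.55 and 5.53 in DJ, a difference of -0.60 (SE 0.17, limma adjusted p = 0.803). The RS and DJ526 mice lay between 5.01 and 5.47, so that the Ctrl mice were the ones that stood apart. The kinase Pdk1, which shuts off pyruvate dehydrogenase, was lower by a difference of -0.38 and Arrdc4, a target of the carbohydrate sensor Mlxipl, of -0.14, and Pfkfb3, which makes an activator of glycolysis, was higher by 0.45. G6pdx, the first enzyme of the pentose phosphate pathway, was at 0.15 in Ctrl 1 but at 3.51 and 3.06 in Ctrl 2 and 3.

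Genes of fatty acid and triglyceride synthesis were on the lower side in DJ with wide overlap. Of 34, 27 were below 0, the median was -0.13, 0 were lower and 1 was higher without overlap (2.94%, beside 5.57% of all genes). That 1 was Plin4, a lipid droplet coat protein, at 0.52, above all 9 other mice under the 75th percentile and under none of the other 4 scalings. Fasn, fatty acid synthase, was at 1.94, 4.34 and 4.36 in Ctrl and at 2.27, 3.66 and 2.81 in DJ. Ctrl 1 was low and Ctrl 2 and 3 were high, and the DJ mice lay between them. Cidea, a lipid droplet protein, had the largest difference of the list at -2.88 (SE 0.92, limma adjusted p = 0.846), which was -1.53 under normexp and -1.68 without Ctrl 1. It was at -0.53, -2.85 and -5.43 in Ctrl and at -5.86, -6.44 and -5.17 in DJ, so that it spread over the Ctrl mice and was low in each DJ mouse. Cidea is also 1 of the fat cell markers. Their summed level was 5.39 in Ctrl 1, where Cidea was highest, and 1.86 to 2.93 in the other Ctrl and DJ mice. The part of fat cells in the Cidea values was not tested. Of the 34 genes of fatty acid oxidation, 0 were without overlap, and of the 26 of cholesterol synthesis 1 was, Acat2 at 0.35.

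**Figure D3:**
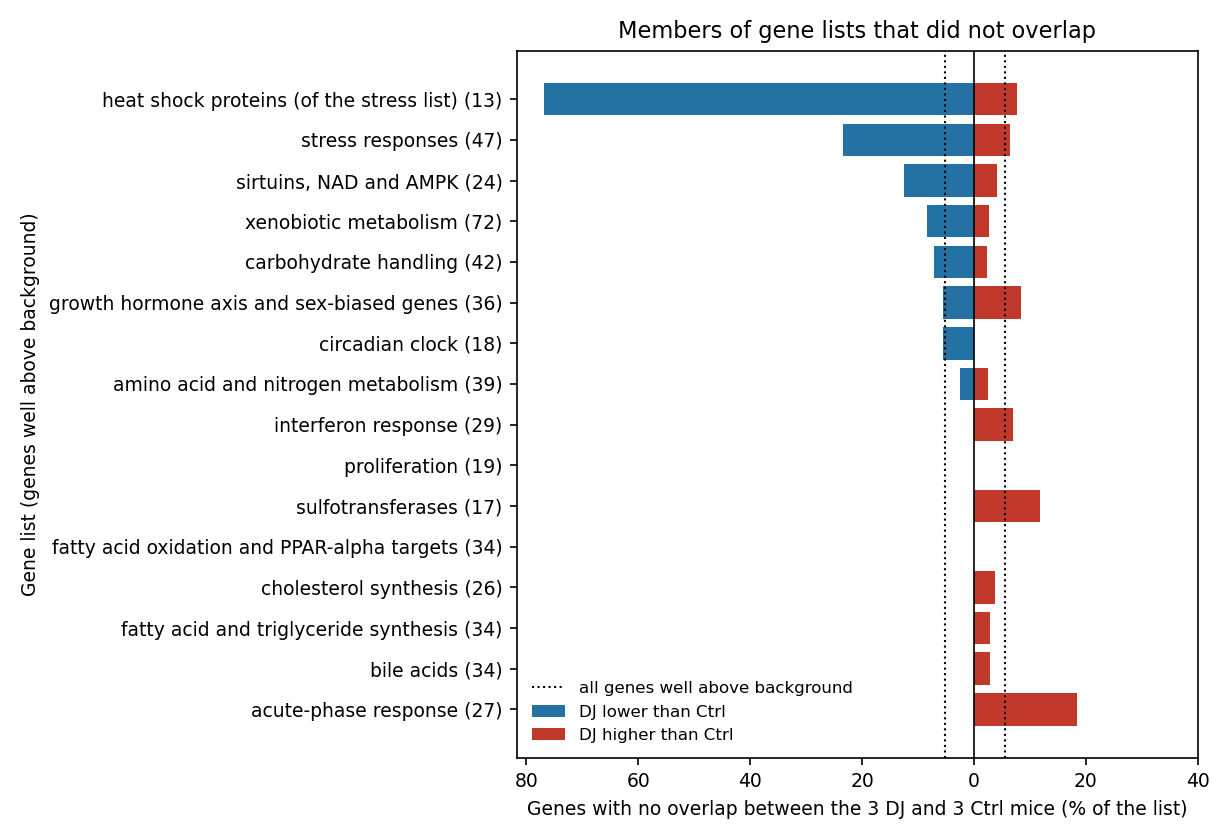
Share of each gene list (horizontal axis, percent of its genes well above background, their number in parentheses) that was lower (left, blue) or higher (right, red) in all 3 DJ mice than in all 3 Ctrl mice; dotted lines are the shares over all genes, 5.15% and 5.57%. The heat shock proteins, at 76.9% lower, lie farthest from the dotted lines, and the acute-phase genes, at 18.5%, have the highest share on the right among the lists drawn.

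Genes that handle foreign compounds gave 2 higher and 6 lower without overlap among 72, with a median of 0.00. These are 2.78% and 8.33%, beside 5.57% and 5.15% of all genes. Cyp1a1, the enzyme induced through the dioxin receptor Ahr, was at -5.08, -4.62 and -5.91 in Ctrl and at -3.66, -3.87 and -4.32 in DJ. The difference was 1.25 (SE 0.38, limma adjusted p = 0.803), or 2.38-fold, and 0.58 under normexp. RS and DJ526 mice, at -4.54 to -3.42, covered the DJ range. Ahr itself was at 1.83, 2.20 and 1.90 against 2.28, 2.40 and 2.43, a difference of 0.40 (SE 0.14). The 6 lower genes were Cyp2a4 (-0.41), Ugt2b5 (-0.17), the haem oxygenase Hmox1 (-0.38), the thioredoxin reductase Txnrd1 (-0.21) and the glutathione transferases Gsta4 (-0.56) and Gstt2 (-0.51). Gstt2 was at 3.32, 2.85 and 2.99 in Ctrl and at 2.42, 2.50 and 2.73 in DJ, below the 9 others except with the array median. Gsta4 was at 0.98, 0.96 and 0.97 against 0.91, 0.76 and -0.43, so that most of its difference lay in DJ 3. These genes belong to families of close relatives, and a probe may take up signal from more than 1 of them.

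Apart from the heat shock proteins, the remaining lists had few genes without overlap, where 5.57% of all genes were higher and 5.15% lower. The whole stress list of 47 genes, heat shock proteins included, had 3 higher and 11 lower (6.38% and 23.4%). Its unfolded protein response, chaperones and sensors of the endoplasmic reticulum, had 18 of 21 genes above 0 with 1 higher and 1 lower without overlap, Sesn2 at 0.41 and Xbp1 at -0.28. Amino acid and nitrogen metabolism had 1 and 1 of 39 (2.56% each), Cbs at 0.41 and Asl at -0.30. The interferon response had 2 higher of 29 (6.9%), among them the T cell attractant Cxcl9 at 0.62, and proliferation 0 of 19. Among 36 genes of the growth hormone axis and sex-biased genes, A1bg, Abcd2 and Mup2 were higher (8.33%) and Igfbp2 and Onecut1 lower (5.56%). Igfbp2, a carrier of insulin-like growth factors, was at 5.21, 5.01 and 5.13 in Ctrl and at 4.52, 4.77 and 4.18 in DJ, and the RS and DJ526 mice were at 4.28 to 4.86, which again set the Ctrl mice apart. The sulfotransferase Sult1e1, which inactivates oestrogens, was higher by 0.90 and Papss2, which makes the sulfate donor, by 0.25. These were 2 of 17 in that list (11.8%).

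Of the 24 genes with the largest differences without overlap, 14 had a mean level below the median signal of the arrays, which lay between -3.51 and -3.34. The 12 largest higher in DJ ran from A1bg at 1.95 to Olfr1052 at 1.13, and the 12 largest lower from Serpina4-ps1 at -2.30 to Hsd3b1 at -1.28. Their limma adjusted p-values were between 0.657 and 0.991. Under normexp 14 of the 24 differences were smaller by over 1.5 times, among them Gpr63 at -0.39, Myh13 at -0.46, Olfr1052 at 0.43 and Tnnc1 at -0.89. With slide as a fixed term 6 were smaller by as much, such as Vpreb3 at -0.34, and 4 were larger. Serpina4-ps1, a serpin pseudogene, was at -2.02, -1.22 and -0.17 in Ctrl and at -3.67, -4.16 and -2.49 in DJ. Tnnc1, a cardiac and slow muscle troponin, was at -3.43, -3.21 and -2.86 against -4.16, -5.33 and -5.89, a difference of -1.96 (SE 0.40). Cd300e, a receptor of monocytes, was at 0.02, -0.75 and 0.73 against -1.73, -1.35 and -1.09. Vpreb3 (-1.87), Gpr63 (-1.64), Slc38a5 (-1.50), Myh13 (-1.40), Il11 (-1.37), Nat8f5 (-1.34), Col27a1 (-1.33) and Lingo4 (-1.28) were the remaining lower genes, and Il11 rested on Ctrl 2, at -1.64, without which it was -0.50. Slc38a5 was -0.91 without Ctrl 3. Under the 75th percentile, only Il11 and Olfr1052 of the 24 lay outside the 9 other mice, Il11 also in the deposited table alone and Olfr1052 in all scalings but that one.

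Of the higher genes, Srrm4, a splicing factor of neurons, was at -3.05, -2.24 and -2.17 in Ctrl and close together at -1.37, -1.26 and -1.46 in DJ, a difference of 1.13. Serpinb1c (1.79) was highest in DJ 2, and Mc3r (1.20, or 0.71 without DJ 3) and Chil1 (1.18) in DJ 3. Gm15056 (1.25), Mmp3 (1.20), Pla2g5 (1.16) and Tubb2b (1.15) were highest in DJ 1, and without it their differences were 0.52, 0.77, 0.40 and 0.81. The 1.72 of 4932412D23Rik came from Ctrl 3, at -4.29, without which it was 0.29. A1bg, a plasma protein more abundant in female mice, was at -2.23, -1.68 and -4.36 in Ctrl and at -1.57, -0.17 and -0.67 in DJ, and its difference was 1.15 without Ctrl 3.

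**Figure D4:**
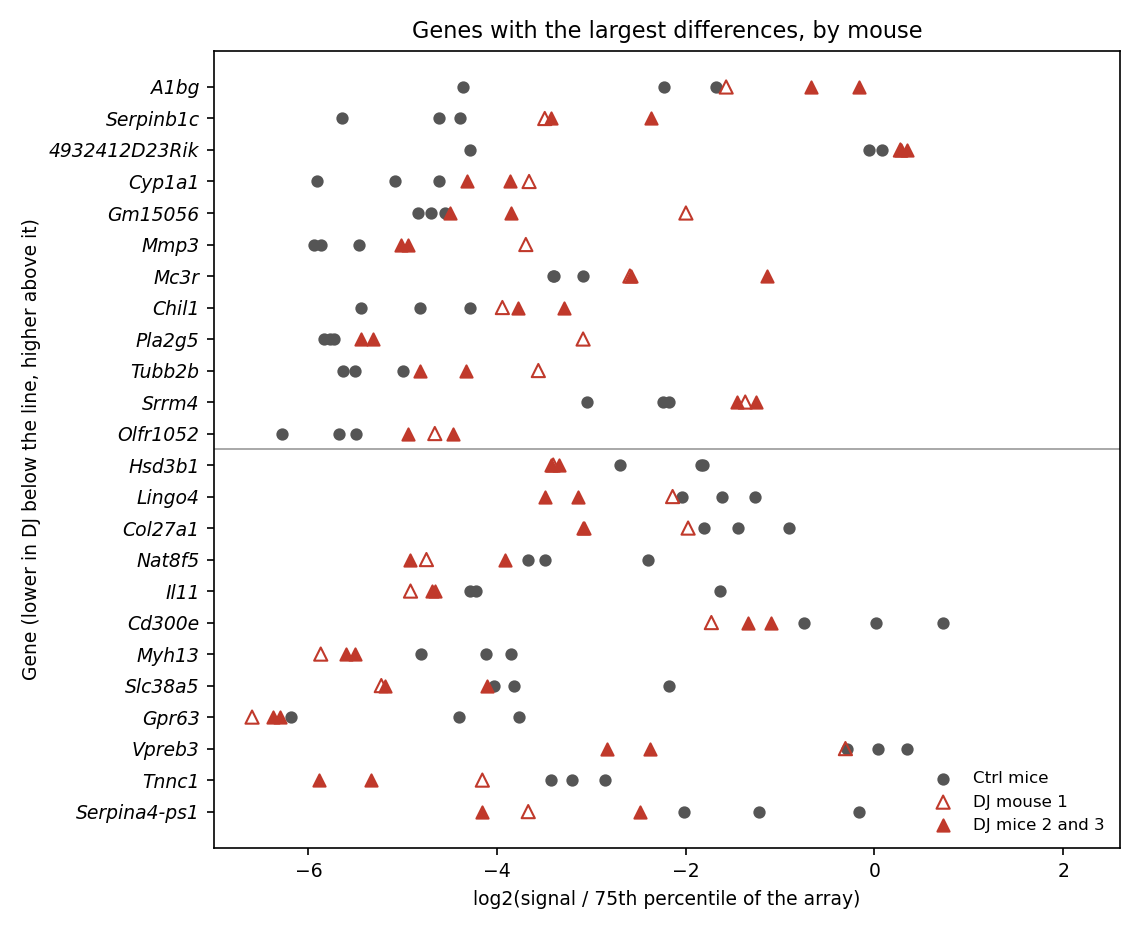
Log2 level (horizontal axis) of the 24 genes with the largest differences without overlap, 12 higher in DJ above the line and 12 lower below it, in each Ctrl mouse (circles), DJ 1 (open triangle) and DJ 2 and 3 (filled triangles). Gm15056, Mmp3, Pla2g5 and Tubb2b are highest in DJ 1, and Ctrl 3 is alone at the low end for 4932412D23Rik.

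DJ mice were not alike in several liver genes. The 10 genes with the largest SD over the DJ mice ran from Sult2a4 at 3.47 to Pou2af1 at 2.24. The Sult2a enzymes, which sulfate bile acids and steroids, were high in DJ 1 and 2 and not in DJ 3. Sult2a4 was at 1.08, -0.22 and -0.20 in Ctrl and at 5.29, 5.03 and -0.85 in DJ, and Sult2a1 at 3.26, 2.01 and 1.89 against 6.73, 6.41 and 1.20. Sult2a3 and Sult2a6 followed, with an SD of 2.63 and 2.27, and so did Sult2a2 at 6.56, 6.39 and 2.72 in DJ, whereas Sult2a7 and Sult2a8 did not. The mean difference of Sult2a4 was 2.94 (SE 1.36, limma adjusted p = 0.955). It describes no DJ mouse, and was 4.94 without DJ 3 and 1.87 without DJ 1. The genes are close copies of each other, so that probes may share targets.

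DJ 3 also differed in Hsd3b5, a steroid enzyme of male liver, which was at -1.51 in DJ 3 and at -5.83 to -4.02 in the other 11 mice. In DJ 1 it was B cell genes that stood out. The summed level of the B cell markers was 23.5 in DJ 1, 2.80 and 4.24 in DJ 2 and 3 and 2.73 to 6.90 in Ctrl. It was also high in DJ526 1 (11.8), RS 1 (9.38) and DJ526 2 (7.98), and the median deviation of these genes was 2.83 in DJ 1 and 2.47 in DJ526 1. Pou2af1, a B cell transcription factor, was at 0.69 in DJ 1 and at -3.60 to -1.78 in the 5 other mice. Ccl8, a chemokine, was at 1.42 in DJ 1 and Tff1, a trefoil peptide of the stomach lining, at -0.71, where the other DJ mice were at -4.14 and -2.34 and at -6.16 and -6.27. Pde5a, a phosphodiesterase read by a single probe, was at 1.19, 1.24 and 0.06 in Ctrl and at 0.98, -3.53 and -2.57 in DJ. The RS mice were at -3.74, -3.37 and -2.14 and the DJ526 mice at 0.95 to 1.08. The low values of Pde5a thus lay in DJ 2 and 3, RS 1 and 2, which shared a slide, and RS 3, which did not. The remaining genes of the 10, Syt10 (SD 2.40) and Cfd (SD 2.26), an adipocyte serine protease, also varied over the Ctrl mice, with an SD of 1.68 and 2.94.

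**Figure D5:**
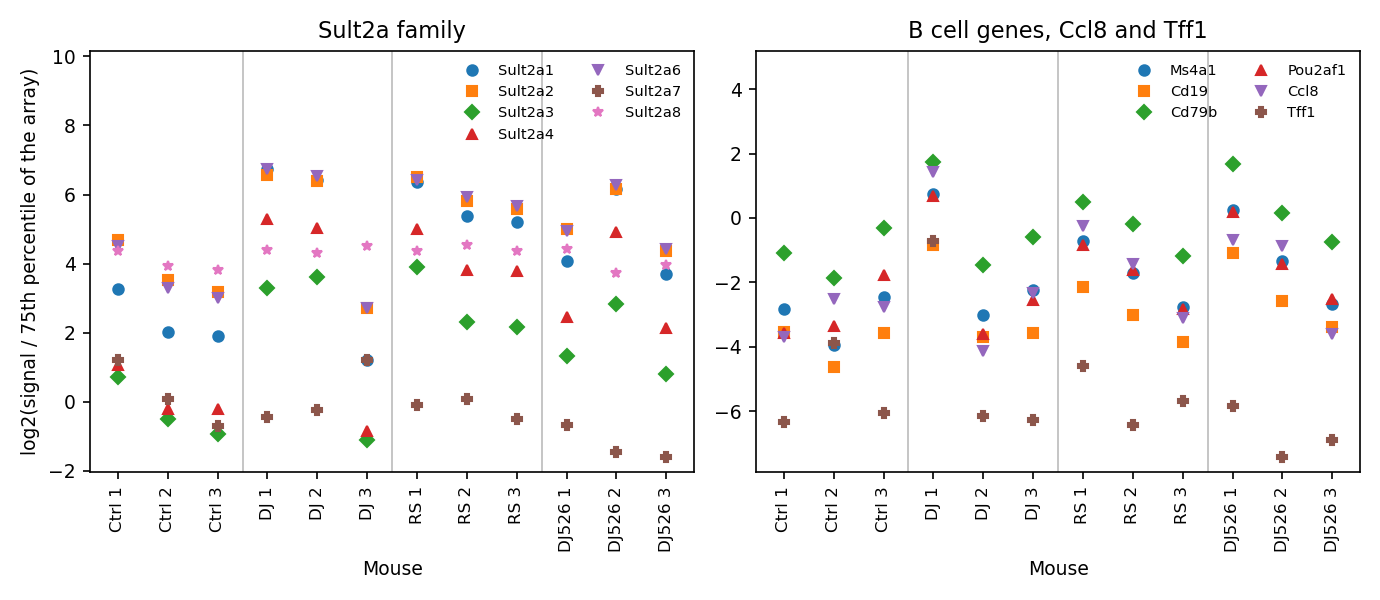
Log2 level (vertical axis) of 7 Sult2a genes (left) and of B cell genes, Ccl8 and Tff1 (right) in each of the 12 mice. Most Sult2a genes were high in DJ 1 and 2 and low in DJ 3, and B cell genes, Ccl8 and Tff1 were highest in DJ 1.

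With the slide as a fixed term, limma called 16 probes (0.0406%), 15 higher and 1 lower in DJ. In that fit the difference is the value of DJ 1 against the Ctrl mice on its slide. DJ 1 lay outside all 11 other mice in 15 of the 16, and only Atl2, an endoplasmic reticulum GTPase that was lower by a difference of -0.85, was well above background on all 6 arrays. The other named genes were Gkn2, Isx, Otx1, 9130019P16Rik, Il12a, Cryge, T, Mucl3 and Akap6, and 6 probes had no name. Gkn2, a gastric secreted protein, was at -3.06 in DJ 1 and at -8.06 and -9.14 in DJ 2 and 3.

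The diet of the DJ526 mice also put rice in place of starch and sucrose, and set against RS it gave values from other mice, though with resveratrol, the transferred gene and the split over slides given above. Of the 875 genes higher in DJ without overlap, DJ526 was above RS in 422 (48.2%), beside 49.4% of all genes. Of the 809 lower, DJ526 was below RS in 376 (46.5%), beside 50.6% of all genes. Per2 differed by -0.24 between DJ526 and RS (limma adjusted p = 0.984), Nampt by -0.04 (adjusted p = 0.993), Hspa1a by 0.11 (adjusted p = 0.989) and Hsd3b7 by 0.10 (adjusted p = 0.988). The difference between the contrasts, tested as an interaction in limma across all probes, gave 0 calls at an adjusted p under 0.05 and 2385 probes at an unadjusted p under 0.05.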

How the data were processed

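Liver RNA of 12 mice, 3 per group, was hybridised to 12 one-colour arrays. The authors deposited the scanner output of each array, with signal intensity per spot (Feature Extraction software, per the file headers), and a normalized intensity table, in which each array's processed signal is multiplied by a constant (0.959 to 1.08). Control spots and flagged outlier spots were left out, spots of a probe were averaged, and log2 of the processed signal minus log2 of the 75th percentile (953 to 1105 on the 6 arrays) was computed. Precision is limited by the number of arrays. Of 39429 probes 27502 had a gene symbol (20882 genes), and a gene was read by its brightest probe.

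limma 3.58.1 (R 4.3.3, Python 3.11.15) was fitted to the 12 arrays with 1 mean per group, a mean-variance trend and a robust prior, which was tested on simulated data. The genes named were the 12 largest differences in each direction without overlap, the 10 most variable in DJ, probes called with slide as a fixed term, the 5 brightest genes of 1 group only in each direction and members of 15 lists, the largest differences first. Lists and members were chosen with earlier results of these data known. Genes of a list named beyond its 2 largest, and Nmrk1, were chosen after their values were seen. A sheet of the study exchanges the array numbers of DJ and RS. The labels were followed. Alternatives were other scalings and filters, slide and replicate number as blocks, the methods' t-test and Z ratio, the deposited table, the exchange, and leaving out each mouse. Promoters came from RefSeq (GRCm38.p6).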

Additional observations from a re-analysis of the deposited data

How the results depend on the processing

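No alternative fit, other than those given here, moved the count of 0 probes called between DJ and Ctrl. Slide as a fixed term gave 16 called probes, and 8 with a prior that follows the trend and is not robust. Leaving out each mouse gave 0 to 1 probes, 1 without Ctrl 1 and 1 without Ctrl 2. The methods' t-test without adjustment gave 1817, and the Z ratio criterion gave 537. With the replicate number as a block there were 0 calls on 6 arrays (1986 at an unadjusted p under 0.05, against 1751 without the block). Whether the numbers pair the mice cannot be settled with 3 mice a group. The correlations of deviations of same-numbered Ctrl and DJ mice were 0.018, 0.118 and 0.093. Those of mice with unlike numbers ran from -0.222 to 0.083. Ctrl 2 and Ctrl 3 correlated best with the DJ mouse of their number, and Ctrl 1 with DJ 2 (0.056). Median scaling, quantile normalization, normexp, the deposited table and the exchange of DJ and RS each gave 0 calls. Unadjusted, the same threshold was passed by 1700, 2312, 2601, 2240 and 2376 probes. The descriptions of single genes and lists do depend on the labels. Under the exchange the mice named RS here would stand for DJ, and their Per2 values overlapped those of Ctrl. Their median deviations of the heat shock protein genes were -0.06, -0.12 and -0.32.

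The share of genes on either side did depend on the scaling. Without overlap there were 1199 higher and 772 lower with normexp. Genes with all DJ mice outside the 9 others numbered 94 higher and 28 lower with the array median, 105 and 40 with normexp, and 18 and 181 in the deposited table. Leaving out a mouse gave 1261 to 2362 genes higher and 1329 to 2044 lower without overlap.

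Of 63 named genes, 58 kept their direction under the 14 alternatives. The Lcn2 log2 difference turned to -0.17 with slide as a fixed term and ranged from -0.061 to 1.05 over the mice left out, the lowest without DJ 3. The Isg15 log2 difference turned to -0.020 with slide as a fixed term. Over the mice left out, the Cyp51 log2 difference ranged from -0.17 to 0.80, the Cyp4a10 log2 difference from -0.00843 to 1.33 and the Ccna2 log2 difference from -0.056 to 0.77. Of the list medians, 26 moved by more than the spread between mice and 184 did not. Among those that moved were proliferation, at 0.92 with slide as a fixed term, and fatty acid and triglyceride synthesis, at -0.40. The cause was not tested. Genes not well above background on an array have no reliable level there.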

Other observations

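Some genes were above background in 1 diet only. In the 3 DJ livers and in 0 Ctrl livers, 9 genes were well above background, and 10 genes were so in the Ctrl livers alone. Of the first, Csf3, the granulocyte growth factor, was at -5.68, -6.41 and -5.69 in DJ and was at least 2.17-fold higher than in Ctrl, the bound being the higher of the Ctrl signal and the lowest signal well above background on those arrays. Dnal1, a dynein light chain, was at least 1.71-fold higher, Nudt17 at least 1.57-fold, Vmn1r42 at least 1.46-fold and Tmem145 at least 1.47-fold. Of those in Ctrl, Pnoc, the precursor of a neuropeptide, was at -6.46, -5.50 and -6.17 and at least 2.08-fold higher than in DJ. Cdh10, a cadherin, was at least 2.07-fold higher but 1.22-fold without Ctrl 2, Vmn1r118 at least 1.90-fold, Lmod1 at least 1.61-fold and Paqr8 at least 1.47-fold. The limma adjusted p-values of these 10 genes lay between 0.799 and 0.991, and all of them are close to the background of the arrays.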
